A study of Mus musculus with 12 samples.

Results

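The genes described here form the machinery that carries a cell through G1: the D-type cyclins Ccnd1, Ccnd2 and Ccnd3, the kinases Cdk4 and Cdk6, the INK4 inhibitors Cdkn2c and Cdkn2d, and the CIP/KIP inhibitors Cdkn1a, Cdkn1b and Cdkn1c. They were chosen by gene symbol, and each had a row, so 10 of the 35869 genes in the tables were followed. Mouse bone marrow was sorted by flow cytometry for haematopoietic stem cells (HSCs), which before RNA sequencing were split into a CD41pos and a CD41neg fraction, CD41 being the integrin chain encoded by Itga2b. RUNX1 knockout (KO) mice had the genotype MxCre1+/-,RUNX1f/f and control (WT) mice the genotype MxCre1-/-,RUNX1f/f, so both carried the floxed gene and only KO mice the Cre driver. Mx1-Cre is switched on by interferon in many cell types, not in HSCs alone. Mice of both genotypes had 4 injections of poly(I:C), an interferon-inducing RNA, and were studied 4 weeks after injection. The groups were CD41pos KO, CD41pos WT, CD41neg KO and CD41neg WT, with 3 libraries each. The labels number the libraries but do not say that each came from a separate animal, so p-values measure the spread between these libraries.

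D-type cyclins are made in response to mitogens and bind CDK4 or CDK6, and these complexes phosphorylate the retinoblastoma protein and so release E2F transcription factors. INK4 proteins bind CDK4 and CDK6 directly and keep the cyclin off, whereas CIP/KIP proteins bind cyclin-CDK complexes and also block CDK2. In HSCs, where most cells are quiescent, p57 (Cdkn1c) and p27 (Cdkn1b) are known for holding cells in G0, p18 (Cdkn2c) for limiting self-renewing divisions, and p21 (Cdkn1a) as a target of p53.

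Total counts ran from 44108035 to 58946457 per library, and each of the 10 genes passed the filter on low counts. Levels are given as normalised counts per library (CPM, with TMM scaling), and changes are log2 fold changes ± SE from edgeR's quasi-likelihood fit of all 12 libraries, with p-values adjusted by Benjamini-Hochberg over 19395 genes and a threshold of 0.05. All 14 genes on a list of HSC markers had counts in all 12 libraries. So did all 11 erythroid, 10 endothelial, and 14 granulocyte and monocyte markers, so counts alone do not check HSC identity. Of the 14 HSC markers, 2 were called higher and 1 lower in KO in each gate, where 17.1% (CD41pos) and 7.82% (CD41neg) of all genes were called. Cd48, which is on that list but is not a positive marker of HSCs, had 178 to 229 CPM in KO and 40.5 to 75.7 CPM in WT libraries. Procr and Mecom were low in the CD41neg KO 2 library (17.0 and 21.0 CPM), against 73.3 and 95.4 CPM in CD41neg KO 1 and 73.1 and 99.4 CPM in CD41neg KO 3. Runx1 itself summed over the whole gene to 157 to 382 CPM in KO libraries, against 65.7 to 159 CPM in WT libraries, and this total includes exons outside the floxed part, so it does not check the deletion. The WT libraries with numbers up to 6 in the labels (CD41pos WT 1 and 4, CD41neg WT 2 and 4) stood apart: the immediate early gene Nr4a1 had 18.6 to 27.7 CPM in these 4 and 237 to 396 CPM elsewhere, and Atf3, a stress response gene, had 0.370 to 1.66 CPM against 31.4 to 85.6 CPM. For KO against WT, calls and list counts were therefore also made with a term for these 4 libraries (the term for library number) and without them. Without them 1 WT library is left per gate, and its spread is taken from the other groups. The CD41pos WT 3 library also differed from its group, with 184 CPM of Kit against 571 and 640 CPM in CD41pos WT 1 and 4.

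KO against WT gave lower levels of the D cyclins Ccnd1 and Ccnd2 and of the INK4 inhibitor Cdkn2c in CD41pos HSCs, and of Ccnd2 and Cdkn2c in CD41neg HSCs. Cdkn1c and Cdkn1b also passed the threshold in CD41pos HSCs, with calls that other fits did not keep. No gene of the set passed the threshold as higher in KO in this fit. With library quality weights (limma-voom), in which CD41pos WT 3 had the lowest weight, 7 of the 10 passed in CD41pos HSCs. That fit called 6456 of all 19395 genes there, more than the main fit. Among the 7 were Cdkn1a (1.597 ± 0.34, adjusted p = 0.00312) and Cdk6 (0.40 ± 0.14, adjusted p = 0.046) as higher in KO. The shares that follow are those of the main fit. In CD41pos HSCs 5 of the 10 genes were called, all lower, where 7.27% of all genes tested were called lower and 17.1% in either direction. In CD41neg HSCs 2 of the 10 were called, both lower, where 3.97% were called lower and 7.82% in either direction. The median log2 fold change over all genes tested was -0.08 in CD41pos and -0.03 in CD41neg HSCs. In bulk RNA, fewer cells of a type and less RNA per cell cannot be told apart.

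**Figure D1:**
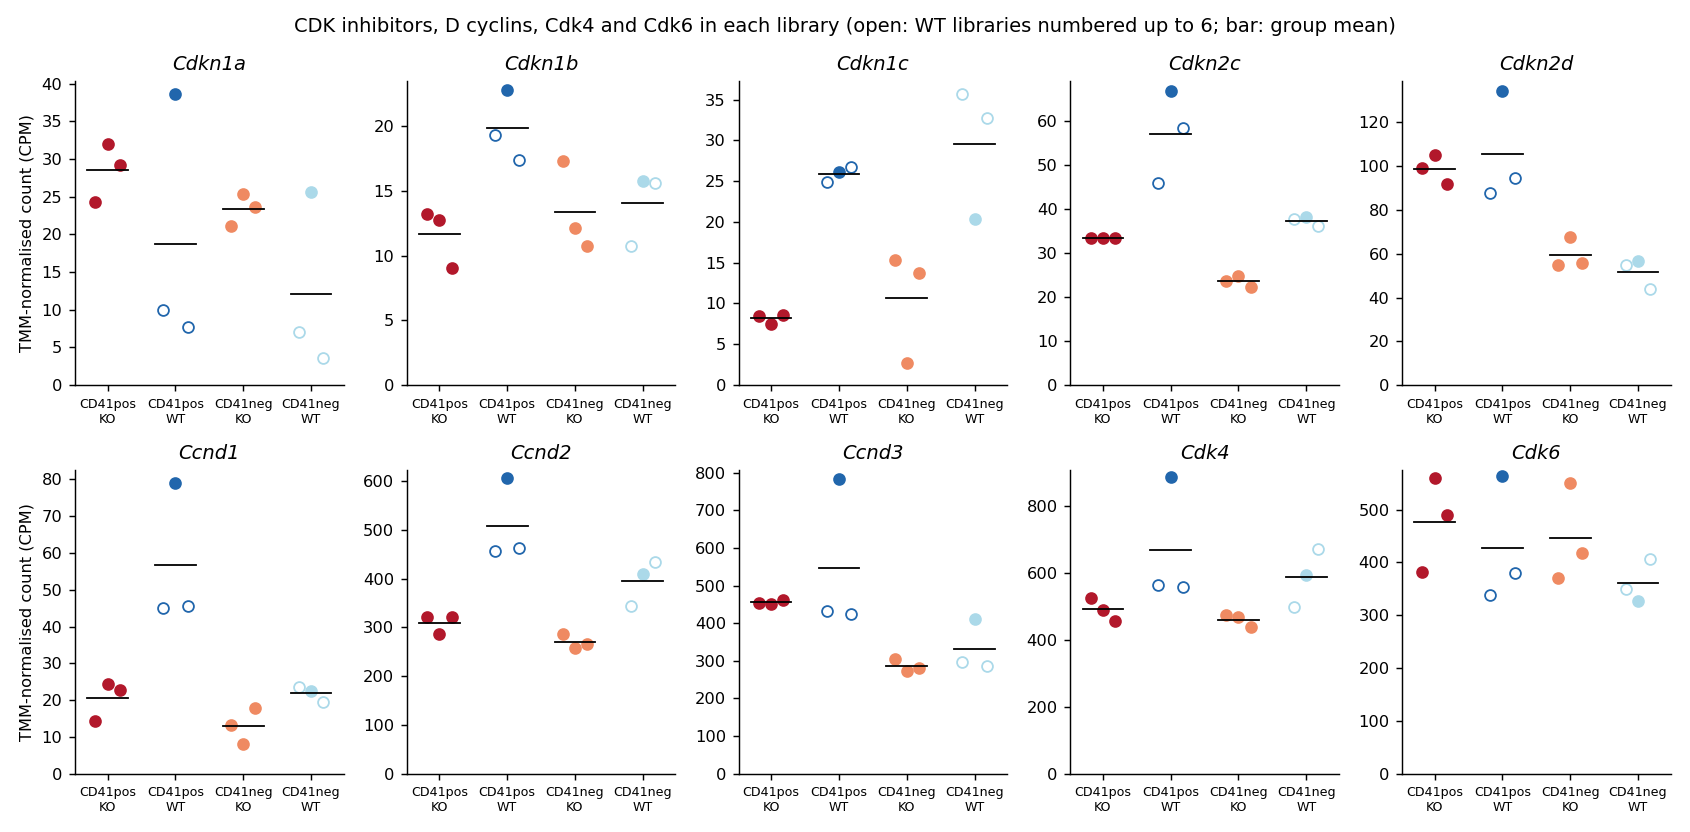
Normalised counts (CPM, linear axes from 0) of the 10 genes in each of the 12 libraries, by group, with bars at the group means; open circles mark WT libraries with a number up to 6. The 3 CD41pos KO libraries lie below all CD41pos WT libraries for Cdkn1b, Cdkn1c, Cdkn2c, Ccnd1, Ccnd2 and Cdk4, and Cdkn1a is low in the open circles (3.62 to 9.92 CPM).

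Ccnd1, which encodes cyclin D1, had 14.2, 24.4 and 22.8 CPM in the 3 CD41pos KO libraries, against 45.1, 79.0 and 45.6 CPM in the CD41pos WT libraries. Every CD41pos KO library lay below every CD41pos WT library, and Ccnd1 fell by 1.47 ± 0.31 on the log2 scale (adjusted p = 0.0107), a level 2.76-fold lower. Among CD41neg HSCs the level was 13.3, 8.01 and 17.8 CPM in KO libraries and 23.6, 22.5 and 19.5 CPM in WT libraries. These groups did not overlap either, yet the log2 fold change of -0.75 ± 0.31 did not pass (adjusted p = 0.149). Adding the term for library number made the CD41pos difference -1.72 ± 0.34 (adjusted p = 0.00789), and without them -1.87 ± 0.40 (adjusted p = 0.00711). On the opposite strand, LTO1 overlaps 23.4% of the exonic bases of Ccnd1 in the annotation, and the library kit does not mark strand, so reads of the overlap cannot be assigned.

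Ccnd2, the cyclin D2 gene, had 322, 286 and 321 CPM in CD41pos KO libraries, against 458, 606 and 462 CPM in CD41pos WT libraries. CD41neg HSCs had 286, 258 and 266 CPM in KO libraries and 345, 410 and 434 CPM in WT libraries. KO lay below WT without overlap in both gates. The log2 fold change was -0.72 ± 0.13 in CD41pos HSCs (adjusted p = 0.0063) and -0.55 ± 0.13 in CD41neg HSCs (adjusted p = 0.029). The call was kept with the term (-0.86 and -0.71, adjusted p = 0.00388 and 0.0154 in CD41pos and CD41neg HSCs) and without the 4 libraries (-0.89 and -0.60, adjusted p = 0.000289 and 0.0151).

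Ccnd3, which encodes cyclin D3, had 453, 450 and 462 CPM in CD41pos KO libraries, and 432, 782 and 424 CPM in CD41pos WT libraries. The KO libraries were close to each other and inside the range of the WT libraries, of which CD41pos WT 3 was far above the others. In CD41neg HSCs Ccnd3 had 304, 273 and 282 CPM in KO libraries and 297, 410 and 286 CPM in WT libraries. Neither difference passed (log2 fold change -0.26 ± 0.21 with adjusted p = 0.398 in CD41pos HSCs, and -0.21 ± 0.21 with adjusted p = 0.564 in CD41neg HSCs). Ccnd3 was itself lower in the 4 WT libraries, by a term of -0.69 ± 0.10 (adjusted p = 0.012). With that term in the model the KO difference passed in both gates, at -0.66 ± 0.11 (adjusted p = 0.0054) for CD41pos and -0.65 ± 0.12 (adjusted p = 0.013) for CD41neg HSCs, so whether Ccnd3 was called turned on how these libraries were treated.

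Cdk4, a kinase and the gene of the set with the highest level per length, had 525, 488 and 457 CPM in CD41pos KO libraries, against 563, 885 and 556 CPM in CD41pos WT libraries. The CD41neg level was 474, 467 and 437 CPM in KO libraries and 497, 593 and 670 CPM in WT libraries. KO was below WT without overlap in both gates, but the differences did not pass (CD41pos -0.45 ± 0.17, adjusted p = 0.0867, and CD41neg -0.35 ± 0.17, adjusted p = 0.212). Groups that did not overlap with KO below WT were common: 22.4% of all genes in CD41pos and 17% in CD41neg HSCs, against 6 of the 10 genes in CD41pos and 5 in CD41neg HSCs. With the term, Cdk4 was called in CD41pos HSCs (-0.65 ± 0.17, adjusted p = 0.0207) and not in CD41neg HSCs (-0.60 ± 0.18, adjusted p = 0.0576). Without the 4 libraries the CD41pos call was kept (-0.77 ± 0.09, adjusted p = 0.000472). Tspan31 on the opposite strand shares 19.7% of the exonic bases of Cdk4.

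Cdk6, the partner kinase, had 382, 560 and 490 CPM in CD41pos KO libraries and 338, 564 and 380 CPM in CD41pos WT libraries. CD41neg values were 370, 550 and 418 CPM in KO libraries and 350, 326 and 407 CPM in WT libraries. The groups overlapped in both gates, and in both the KO 2 library was the highest of the KO group. Its log2 fold change was 0.16 ± 0.21 in CD41pos (adjusted p = 0.621) and, in CD41neg HSCs, 0.30 ± 0.21 (adjusted p = 0.378).

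Promoters of 300 bases (250 before to 50 after the start, RefSeq, GRCm38.p6) were available for 7 of the 10 genes, with 10 promoters in all; Cdkn1c, Ccnd1 and Ccnd2 had none in the table used. The RUNX core letters TGTGGT and TGCGGT were searched on both strands, and 22.4% of 32851 promoters held at least 1 of them. Of the 10 promoters here, 2 did. Cdk4 held TGTGGT at 2 places on the strand opposite to the gene, at positions -154 and -66 from the start, and the first Ccnd3 promoter held TGCGGT on the gene's strand after the start. The E2F letters TTTCCCGC and TTTGGCGC, in 1.57% of all promoters, were in none of the 10. The sequences of these promoters are shown with the first promoter of Cdkn2c, the INK4 gene that was lower in KO in both gates, which held none of the letters. Capitals mark the RUNX letters (ACCACA is TGTGGT read on the other strand), and a match of letters is not evidence of binding.
Cdk4 promoter, chr10:127063285-127063584, plus strand: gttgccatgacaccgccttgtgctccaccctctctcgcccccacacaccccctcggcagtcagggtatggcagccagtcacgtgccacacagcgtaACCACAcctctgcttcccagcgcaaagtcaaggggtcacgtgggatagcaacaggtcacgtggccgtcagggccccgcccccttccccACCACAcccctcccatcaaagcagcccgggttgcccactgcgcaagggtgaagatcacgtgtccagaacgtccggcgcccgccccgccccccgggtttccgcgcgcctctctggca
Ccnd3 promoter, chr17:47504801-47505100, plus strand: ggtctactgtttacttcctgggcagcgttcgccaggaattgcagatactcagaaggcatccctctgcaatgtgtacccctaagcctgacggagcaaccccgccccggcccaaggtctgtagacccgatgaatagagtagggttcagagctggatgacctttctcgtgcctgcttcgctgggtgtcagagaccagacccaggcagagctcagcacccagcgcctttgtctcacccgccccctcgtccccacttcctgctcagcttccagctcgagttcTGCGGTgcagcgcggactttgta
Cdkn2c promoter, chr4:109666707-109667006, minus strand: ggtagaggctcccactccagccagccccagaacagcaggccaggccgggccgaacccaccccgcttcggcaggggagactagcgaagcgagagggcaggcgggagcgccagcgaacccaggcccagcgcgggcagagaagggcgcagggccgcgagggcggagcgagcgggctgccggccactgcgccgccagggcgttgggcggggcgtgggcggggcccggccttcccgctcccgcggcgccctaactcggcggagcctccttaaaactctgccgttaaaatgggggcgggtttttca

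Cdkn2c, which encodes the INK4 inhibitor p18, had 33.4, 33.5 and 33.5 CPM in CD41pos KO libraries, against 46.1, 66.9 and 58.5 CPM in CD41pos WT libraries. For CD41neg HSCs the values were 23.6, 24.9 and 22.3 CPM in KO libraries and 37.8, 38.3 and 36.1 CPM in WT libraries. KO lay below WT in both gates with no overlap. Cdkn2c fell by 0.77 ± 0.15 on the log2 scale in CD41pos HSCs (adjusted p = 0.00683), or 1.71-fold, and by 0.66 ± 0.15 in CD41neg HSCs (adjusted p = 0.0209), or 1.58-fold. The term moved the difference to -0.90 ± 0.16 for CD41pos (adjusted p = 0.00538) and -0.80 ± 0.16 for CD41neg HSCs (adjusted p = 0.0172), and without the 4 libraries they were -0.92 ± 0.12 (adjusted p = 0.000718) and -0.70 ± 0.12 (adjusted p = 0.0189).

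Cdkn2d, which encodes the INK4 inhibitor p19, had 99.1, 105 and 92.0 CPM in CD41pos KO libraries and 87.6, 134 and 94.8 CPM in CD41pos WT libraries. In CD41neg HSCs it had 54.8, 67.7 and 55.9 CPM in KO libraries and 54.9, 56.9 and 43.8 CPM in WT libraries. The genotypes overlapped in both gates, with a log2 fold change of -0.10 ± 0.17 for CD41pos (adjusted p = 0.722) and 0.20 ± 0.17 for CD41neg HSCs (adjusted p = 0.489).

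Cdkn1c, the imprinted gene of the CIP/KIP inhibitor p57, had 8.48, 7.46 and 8.60 CPM in CD41pos KO libraries, against 24.9, 26.1 and 26.7 CPM in CD41pos WT libraries. Both groups were narrow and well apart, and the level was 3.17-fold lower in KO (log2 fold change -1.66 ± 0.46, adjusted p = 0.0294). In CD41neg HSCs it had 15.4, 2.73 and 13.8 CPM in KO libraries and 35.6, 20.3 and 32.7 CPM in WT libraries. The lowest value was that of CD41neg KO 2, the library low in Procr and Mecom, and the difference did not pass (-1.48 ± 0.46, adjusted p = 0.0661). Without that library it was -1.02 (adjusted p = 0.0415). The CD41pos call was lost with the term (-1.44 ± 0.53, adjusted p = 0.0688), without the 4 WT libraries (-1.59 ± 0.69, adjusted p = 0.109), and when any 1 of the 3 CD41pos KO libraries or CD41pos WT 1 or 3 was left out (adjusted p = 0.0828, 0.107, 0.0872, 0.0548 and 0.054). An antisense gene, Gm44732, overlaps 30.7% of the exonic bases of Cdkn1c.

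Cdkn1b, which encodes p27, had 13.2, 12.7 and 9.00 CPM in CD41pos KO libraries, against 19.3, 22.8 and 17.4 CPM in CD41pos WT libraries. These groups did not overlap (log2 fold change -0.77 ± 0.24, adjusted p = 0.0479). The call was lost when any 1 of the 12 libraries was left out (adjusted p = 0.0507 to 0.171) and without the 4 WT libraries (-0.89 ± 0.31, adjusted p = 0.0556), and was kept with the term (-0.95 ± 0.28, adjusted p = 0.0323). In CD41neg HSCs Cdkn1b had 17.3, 12.1 and 10.7 CPM in KO libraries and 10.8, 15.8 and 15.6 CPM in WT libraries, which overlapped (-0.07 ± 0.24, adjusted p = 0.884).

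Cdkn1a, which encodes p21, had 24.4, 32.0 and 29.2 CPM in CD41pos KO libraries and 9.92, 38.6 and 7.68 CPM in CD41pos WT libraries. In CD41neg HSCs it had 21.2, 25.3 and 23.7 CPM in KO libraries and 7.07, 25.7 and 3.62 CPM in WT libraries. The KO libraries of both gates and the WT 3 libraries of both gates were at similar levels, 21.2 to 38.6 CPM, and the 4 WT libraries that stood apart were at 3.62 to 9.92 CPM. Differences between KO and WT were positive and did not pass (CD41pos 0.61 ± 0.65, adjusted p = 0.537, and CD41neg 0.95 ± 0.66, adjusted p = 0.382). The term for the 4 libraries was -2.20 ± 0.23 (adjusted p = 0.00159), and with it the sign turned (CD41pos -0.48 ± 0.28, adjusted p = 0.226, and CD41neg -0.09 ± 0.28, adjusted p = 0.852). Library number and WT genotype are linked in these 4 libraries, so the KO difference in Cdkn1a cannot be told apart from that split.

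**Figure D2:**
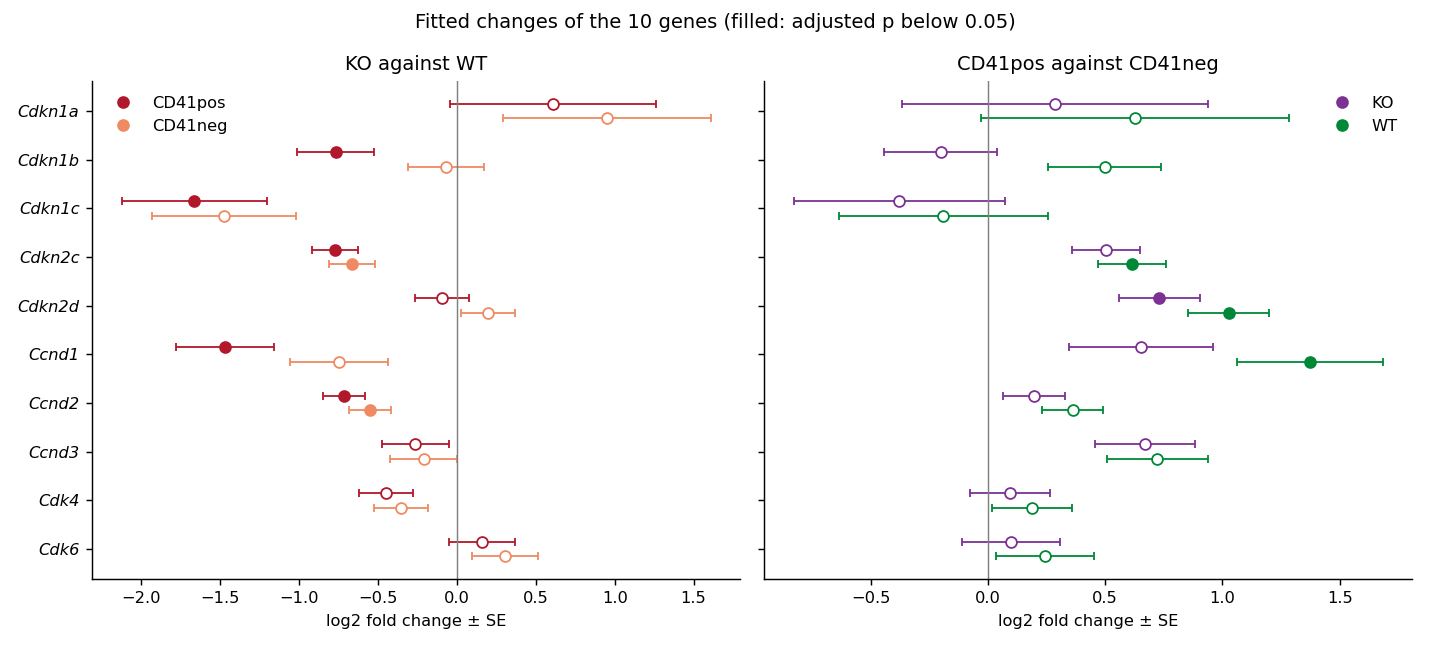
Fitted log2 fold changes ± SE (horizontal axes) of the 10 genes, KO against WT in each gate on the left and CD41pos against CD41neg in each genotype on the right; filled points passed an adjusted p of 0.05. The filled points of KO against WT lie at -1.66 to -0.72 in CD41pos and at -0.66 and -0.55 in CD41neg HSCs, and those of the gate comparison lie between 0.61 and 1.37.

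**Figure D3:**
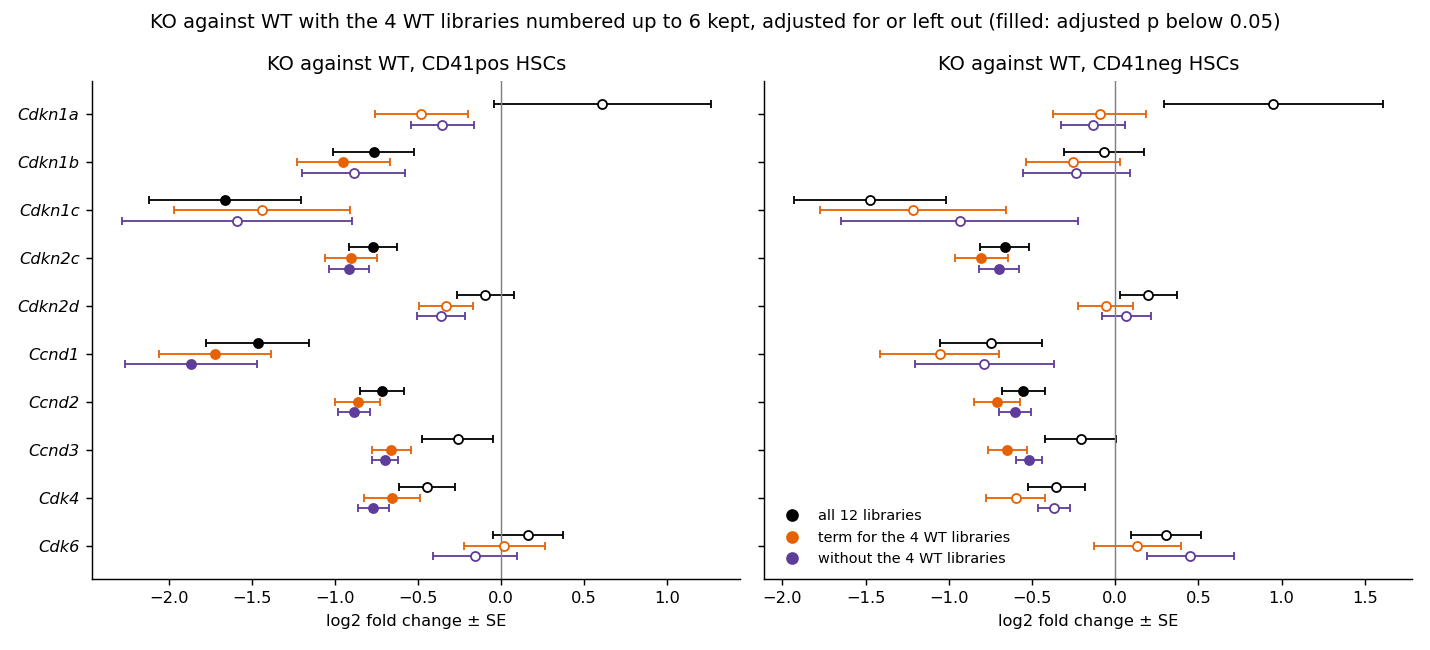
Log2 fold changes ± SE of KO against WT in CD41pos (left) and CD41neg HSCs (right) from all 12 libraries, with a model term for the WT libraries whose numbers run up to 6, and without these libraries; filled points passed an adjusted p of 0.05. Cdkn2c and Ccnd2 are filled in all 3 fits in both gates, Ccnd3 is filled only in the fits that adjust for or leave out the 4 libraries, and Cdkn1a changes sign.

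CD41pos HSCs were compared with CD41neg HSCs within each genotype. The INK4 gene Cdkn2d was higher in CD41pos HSCs in both genotypes, and in WT so were Cdkn2c and Ccnd1. Of the 10 genes 1 was called in KO, where 2.79% of all genes tested were called in either direction and 1.56% as higher. In WT 3 were called, where 5.59% were called in either direction and 2.72% as higher. All calls were higher in CD41pos. Groups did not overlap, with CD41pos above CD41neg, for 3 of the 10 genes in KO and 6 in WT, where 15.7% and 11.4% of all genes did so.

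The Cdkn2d values given above put all 3 CD41pos libraries (92.0 to 105 CPM in KO, 87.6 to 134 CPM in WT) over all CD41neg libraries (54.8 to 67.7 CPM in KO, 43.8 to 56.9 CPM in WT). The log2 difference was 0.73 ± 0.17 in KO (adjusted p = 0.043) and 1.03 ± 0.17 in WT (adjusted p = 0.00638), or 1.66-fold and 2.04-fold. A KO number is shared by a CD41pos and a CD41neg library, and with it as a replicate block the KO difference was 0.74 ± 0.13 and no longer passed (adjusted p = 0.0653). The KO call was also lost when any 1 of the 6 KO libraries or CD41neg WT 2 was left out (adjusted p = 0.0507 to 0.179). The WT call was lost in a fit of the WT groups alone (adjusted p = 0.0702) and with the block (adjusted p = 0.0541), and was kept without any 1 of the 12 libraries. In WT only the numbers 3 and 4 have a library in both gates, and the WT 4 libraries deviated in opposite ways (correlation -0.519). A WT call lost with the block, here and below, is therefore a limited check.

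Cdkn2c was higher in CD41pos WT than in CD41neg WT libraries (0.61 ± 0.15, adjusted p = 0.0303), and in KO the difference of 0.50 ± 0.15 did not pass (adjusted p = 0.0983), although the groups did not overlap in either genotype. The WT call was lost with the block (adjusted p = 0.135), in a fit of the WT groups alone (adjusted p = 0.172), and when any 1 of 8 libraries was left out, the 8 being the 3 CD41pos KO, CD41pos WT 4, CD41neg KO 3 and the 3 CD41neg WT libraries (adjusted p = 0.0534 to 0.0928). Ccnd1 differed most by gate in WT, by 1.37 ± 0.31 (adjusted p = 0.0259) or 2.59-fold, against 0.65 ± 0.31 in KO (adjusted p = 0.39). That WT call was lost with the block (adjusted p = 0.145), in the WT groups alone (adjusted p = 0.0516), without the 4 WT libraries (1.75 ± 0.54, adjusted p = 0.0519), and without CD41pos WT 3 or any 1 of the 3 CD41neg WT libraries (adjusted p = 0.0611 to 0.0912).

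Ccnd3 lay higher in CD41pos than in CD41neg libraries in both genotypes without overlap, and did not pass (0.67 ± 0.21, adjusted p = 0.142 in KO, and 0.72 ± 0.21, adjusted p = 0.0692 in WT). It was called in both genotypes once the term for library number was in the model. Ccnd2 had a difference of 0.20 ± 0.13 in KO and 0.36 ± 0.13 in WT (adjusted p = 0.626 and 0.131). Cdk4 and Cdk6 had differences of 0.09 to 0.24 with adjusted p of 0.547 to 0.938. Cdkn1b differed by -0.20 ± 0.24 in KO and 0.50 ± 0.24 in WT (adjusted p = 0.855 and 0.255), Cdkn1c by -0.38 ± 0.45 and -0.19 ± 0.45, and Cdkn1a by 0.29 ± 0.65 and 0.63 ± 0.66.

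Whether the KO difference depended on the gate was tested as the interaction, the KO difference in CD41pos minus that in CD41neg HSCs. EdgeR's quasi-likelihood test called 0 of 19395 genes (0%), while 1093 genes had an unadjusted p below 0.05 and DESeq2 called 73. Without the 4 WT libraries, which leaves 1 WT library per gate, edgeR called 3467 genes, 2328 of them with a positive value. None of the 10 genes was called in any of these fits. The largest values were those of Ccnd1 (-0.72 ± 0.43, adjusted p = 0.894) and Cdkn1b (-0.70 ± 0.34, adjusted p = 0.883), and the remaining 8 ran from -0.34 to -0.05. A call of Ccnd1, Cdkn1b or Cdkn1c in CD41pos HSCs only is therefore not shown to differ between the gates.

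Levels of different genes can be compared only per length, so the deposited TPM values, which are scaled for gene length, were used for the order within each group. Cdk4 was the highest of the 10 genes in every group, at 654 ± 36.4 TPM in CD41pos KO, 756 ± 65.8 TPM in CD41pos WT, 627 ± 23.5 TPM in CD41neg KO and 710 ± 51.9 TPM in CD41neg WT (SD, n = 3 each), and none of its libraries overlapped with the next gene. Cdk6, Ccnd3 and Cdkn2d followed, and in CD41pos KO these 3 genes, at 140, 139 and 135 TPM (means of n = 3), overlapped with each other and were clear of Cdk4 above and Ccnd2 below. In CD41pos WT the order of the same 3 was Ccnd3, Cdkn2d and Cdk6 at 140, 123 and 106 TPM, again with overlap between them. Ccnd2 came next in CD41pos KO at 57.7 ± 4.10 TPM and in CD41pos WT at 81.3 ± 2.46 TPM, clear of both neighbours. In CD41neg HSCs it was at 51.6 ± 3.93 TPM in KO, clear of Cdkn2d at 82.7 ± 7.20 TPM, and at 67.1 ± 4.42 TPM in WT, where it overlapped with Cdkn2d at 65.0 ± 13.7 TPM. Cdkn2c was the sixth in every group.

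Among the 4 genes with low levels, Cdkn1c was the last in every group on this scale. In CD41pos KO the order was Cdkn1a (25.0 ± 3.51 TPM), Cdkn1b (16.3 ± 2.98), Ccnd1 (9.03 ± 2.47) and Cdkn1c (2.03 ± 0.208), each apart from the next. In CD41pos WT it was Cdkn1b (24.0 ± 1.55 TPM), Ccnd1 (21.0 ± 3.09), Cdkn1a (12.9 ± 9.50) and Cdkn1c (5.57 ± 0.971), where only Cdkn1c was apart from its neighbour. The place of Cdkn1a in CD41pos WT came with a split within the group, at 23.8 TPM in CD41pos WT 3 and 8.20 and 6.60 TPM in CD41pos WT 1 and 4. The order of the set also depended on the gene length used. The length implied by the counts and TPM of Cdkn1c was 5.42 times that of Cdk4, whereas its annotated exonic length is 0.628 times that of Cdk4. Implied and annotated lengths relative to Cdk4 were also 0.98 and 0.484 for Cdkn2d, 7.17 and 2.90 for Ccnd2, 3.03 and 1.45 for Ccnd1, and 0.949 and 1.40 for Cdkn1b. On normalised counts per kilobase of annotated exon, Cdk4 stayed first in every group at 141 to 206 (group means), clear of the next gene. On that scale Cdkn2d was the second in CD41pos KO at 62.8 ± 4.19, above Ccnd3 at 51.9 ± 0.725 and Cdk6 at 34.1 ± 6.42. Cdkn1b was then the last in CD41pos KO at 2.56 ± 0.505, below Cdkn1c at 4.01 ± 0.309, and the last in CD41pos WT and CD41neg WT (SD, n = 3 each).

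The make-up of each class was followed as the share of the summed TPM. Of the D cyclins in CD41pos HSCs, Ccnd3 made up 67.7, 68.3 and 67.0% in KO libraries, against 55.8, 61.9 and 55.0% in WT libraries. In CD41neg HSCs it made up 61.2, 61.8 and 60.0% in KO libraries and 54.9, 59.3 and 49.5% in WT libraries. On this scale Ccnd3 held the larger part of the D cyclin RNA in every library but CD41neg WT 4. Its share lay higher in KO without overlap in both gates. Within WT the share was 61.9 and 59.3% in CD41pos and CD41neg WT 3, and 49.5 to 55.8% in the 4 WT libraries that stood apart. Part of the KO difference in this share therefore cannot be told apart from that split. Counts per annotated exonic length gave lower Ccnd3 shares, 50.01 to 59.04% in the 6 KO libraries and 39.3 to 52.3% in the 6 WT libraries, of which 5 were below 50%, and KO again lay above WT without overlap in both gates. The share of Ccnd1 was 4.37% ± 1.17 in CD41pos KO and 8.62% ± 0.325 in CD41pos WT libraries, and that of Ccnd2 was 28.0% ± 1.44 and 33.8% ± 4.07 (SD, n = 3 each). A two-sided exact permutation test with 3 libraries against 3 cannot go below p = 0.1, which the Ccnd3 and Ccnd1 shares reached in CD41pos HSCs, and the adjusted p over 14 such tests was 0.14 at the lowest.

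Among the kinases, Cdk6 made up 13.8, 20.1 and 19.1% of the Cdk4 and Cdk6 sum in CD41pos KO libraries, against 11.7, 12.3 and 13.0% in CD41pos WT libraries. In CD41neg HSCs the share was 14.6, 20.5 and 17.3% in KO libraries and 13.4, 10.8 and 11.8% in WT libraries. The share was higher in KO without overlap in both gates (exact permutation p = 0.1 each, the smallest possible, adjusted p = 0.14), while neither gene alone passed the test of its level. Among the CIP/KIP genes, Cdkn1c made up 4.73% ± 0.831 in CD41pos KO and 13.6% ± 4.34 in CD41pos WT libraries, and 6.19% ± 3.84 in CD41neg KO and 21.2% ± 9.93 in CD41neg WT libraries. Counts per annotated exonic length put the mean Cdkn1c shares at 27.6% in CD41pos KO, 58.9% in CD41pos WT, 32.8% in CD41neg KO and 68.9% in CD41neg WT, lower in KO in both gates as well. The Cdkn1a share was 57.6% ± 6.28 in CD41pos KO and 28.5% ± 16.0 in CD41pos WT libraries. It followed the 4 WT libraries, being 20.7 and 17.9% in CD41pos WT 1 and 4 and 46.9% in CD41pos WT 3. The Cdkn1c share on TPM also split there, at 14.65 to 29.15% in the 4 and 8.858 and 10.09% in CD41pos and CD41neg WT 3. CD41neg KO 1 and 3 had 8.075 and 8.717%. Cdkn1a is in the same sum, so part of the KO difference in the Cdkn1c share cannot be told apart from that split.

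**Figure D4:**
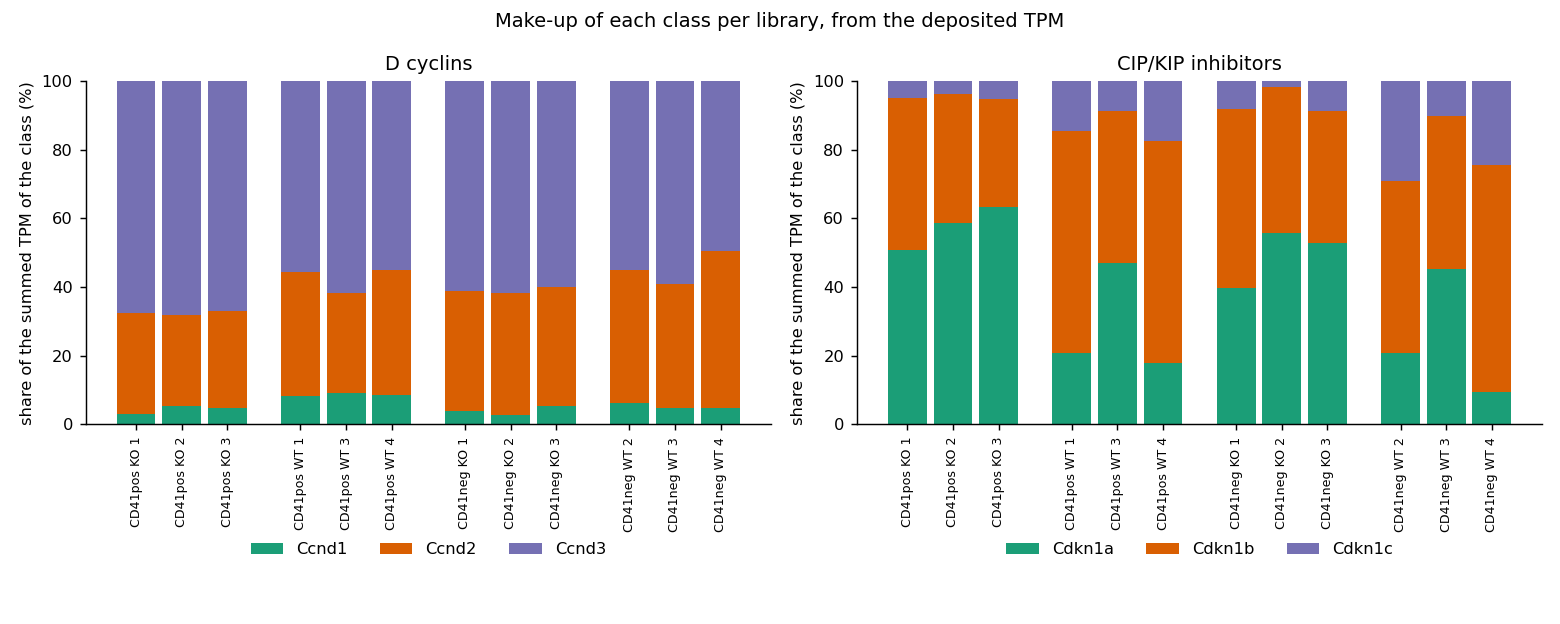
Share of the summed TPM (%, vertical axes from 0 to 100) taken by each D cyclin on the left and each CIP/KIP inhibitor on the right, in each of the 12 libraries. The Ccnd3 part is 67.0 to 68.3% in CD41pos KO against 55.0 to 61.9% in CD41pos WT libraries, and the Cdkn1a part is small (9.49 to 20.7%) in the 4 WT libraries that stood apart.

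Other genes of the G1/S step were taken from a list of 32 partners and targets, of which 30 were tested. In CD41pos HSCs 5 were higher in KO and none was lower, where 9.79% of all genes tested were called higher. These included Rbl1 (170 ± 5.77 CPM in KO and 87.7 ± 11.4 CPM in WT) and Rb1 (70.3 ± 7.46 and 25.0 ± 7.89 CPM), whose products are the pocket proteins that bind E2F factors. The log2 fold change was 0.95 ± 0.15 for Rbl1 (adjusted p = 0.00378) and 1.49 ± 0.31 for Rb1 (adjusted p = 0.00936). The S-phase cyclins Ccna2 and Ccne2 had 363 ± 9.63 and 93.6 ± 1.91 CPM in KO, against 240 ± 12.2 and 47.2 ± 2.38 CPM in WT (SD, n = 3; 0.60 ± 0.11, adjusted p = 0.00543, and 0.99 ± 0.22, adjusted p = 0.0121). In CD41neg HSCs 0 of the 30 passed with edgeR, 12 had an unadjusted p below 0.05 (8 higher, 4 lower), and DESeq2 called 2, both higher. There Ccne2 was the nearest to the threshold (0.77 ± 0.22, adjusted p = 0.05005), followed by Tfdp2 (0.58 ± 0.20), Rb1 (0.86 ± 0.30) and Rbl1 (0.43 ± 0.15). The term for library number left 5 of the 30 higher and 1 lower in CD41pos and 2 higher in CD41neg HSCs. In those fits 2496 and 955 of all 19395 genes were called higher. Without the 4 libraries 13 were higher and 4 lower in CD41pos HSCs, in a fit that called 4319 of all 19395 genes higher and 3320 lower, and 2 were higher in CD41neg HSCs.

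Of 18 proliferation markers, 6 were higher in KO and none lower in CD41pos HSCs, where 9.79% of all genes were called higher. In CD41neg HSCs 2 were higher and none lower, where 3.85% of all genes were called higher. Top2a, the topoisomerase of S and G2 phase, had 684 ± 17.2 CPM in CD41pos KO and 315 ± 47.3 CPM in CD41pos WT libraries (log2 fold change 1.12 ± 0.13, adjusted p = 0.00185), and 523 ± 87.1 CPM in CD41neg KO and 330 ± 3.73 CPM in CD41neg WT libraries (0.67 ± 0.13, adjusted p = 0.0142). Mki67, which encodes the Ki-67 antigen of cycling cells, rose by 1.02 ± 0.13 for CD41pos (adjusted p = 0.00201) and 0.50 ± 0.13 for CD41neg HSCs (adjusted p = 0.0426). The replication licensing genes Mcm6 (0.70 ± 0.16, adjusted p = 0.0145) and Mcm2 (0.49 ± 0.11, adjusted p = 0.0149) rose in CD41pos HSCs. The mitotic kinases Plk1 (-0.62 ± 0.18, adjusted p = 0.0523) and Aurkb (-0.36 ± 0.13, adjusted p = 0.0976) did not pass in CD41neg HSCs. The median over the 18 was 0.16 in CD41pos and -0.01 in CD41neg HSCs. With the term for library number 5 of the 18 were higher in CD41pos and 1 in CD41neg HSCs, and none was lower. In those fits 2496 and 955 of all 19395 genes were called higher. DESeq2 called 7 of the 18 higher and 0 lower in CD41pos, and 2 higher and 1 lower in CD41neg HSCs. Over all 19395 genes it called 2708 higher and 2358 lower in CD41pos, and 1523 higher and 1573 lower in CD41neg HSCs. Without the 4 libraries the median over the 18 was 0.20 in CD41pos and -0.11 in CD41neg HSCs.

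Of 20 regulators known to act on the inhibitors, 3 were higher and 2 lower in CD41pos KO, and 1 was higher and 1 lower in CD41neg KO, where 17.1% and 7.82% of all genes were called in CD41pos and CD41neg HSCs. The term for library number gave 3 higher and 1 lower in CD41pos and 2 higher in CD41neg HSCs. In those fits 4572 and 1683 of all 19395 genes were called. Without the 4 libraries the median log2 fold change of the 20 was 0.16 in CD41pos and 0.14 in CD41neg HSCs. Mdm4 and Mdm2, which restrain p53, rose by 1.04 ± 0.21 (adjusted p = 0.00838) and 0.81 ± 0.21 (adjusted p = 0.0242) in CD41pos HSCs, and Mdm4 also in CD41neg HSCs (0.91 ± 0.21, adjusted p = 0.0229). Tgfbr1, a receptor of TGF-beta, rose by 1.25 ± 0.33 (adjusted p = 0.0238) in CD41pos HSCs and had 1.08 ± 0.33 (adjusted p = 0.061) in CD41neg HSCs. Cebpa, a myeloid factor known to restrain the cell cycle, had 7.17 ± 2.93 CPM in CD41pos KO and 21.8 ± 5.18 CPM in CD41pos WT libraries (-1.61 ± 0.33, adjusted p = 0.00907), and 3.76 ± 0.885 and 8.99 ± 1.92 CPM in the CD41neg groups (-1.26 ± 0.33, adjusted p = 0.0383).

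**Figure D5:**
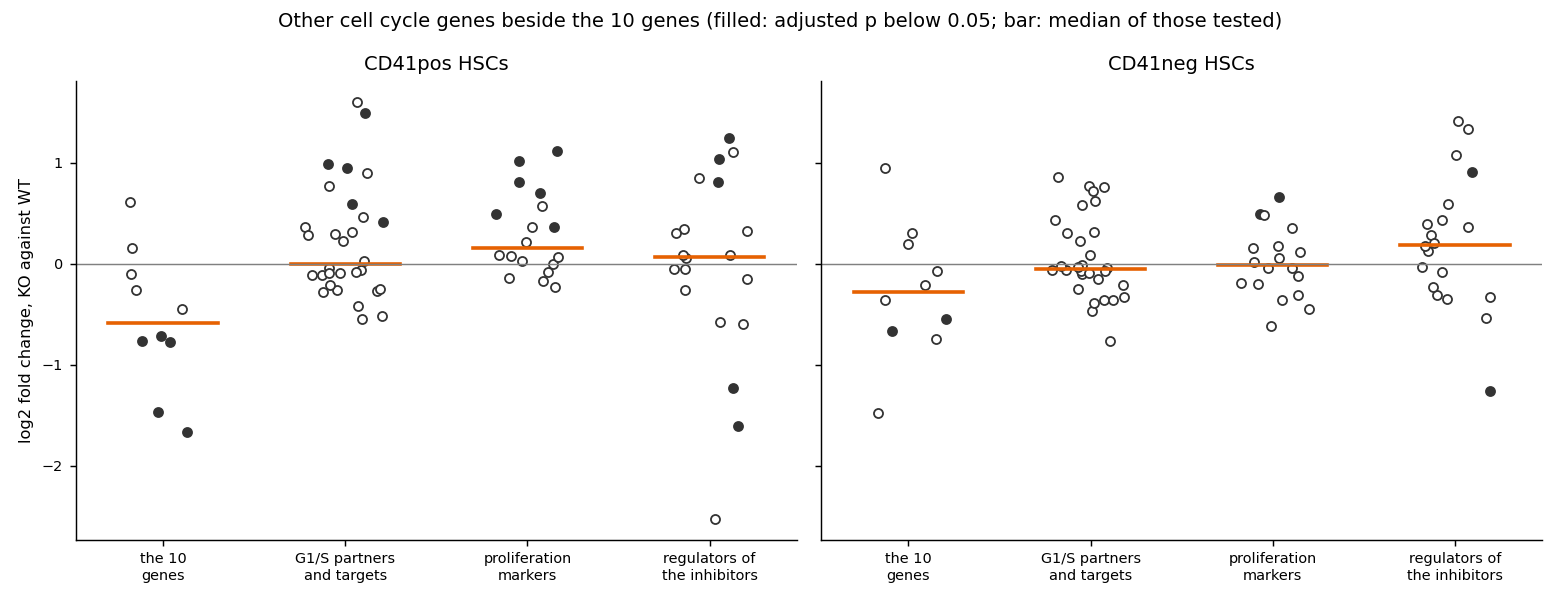
Log2 fold changes of KO against WT (vertical axes) in CD41pos and CD41neg HSCs for the 10 genes and 3 lists of other cell cycle genes, with 1 point per gene tested, filled where the adjusted p was below 0.05, and a bar at the median. The filled points of the 10 genes lie below 0, those of the G1/S and proliferation lists above 0.

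Markers of other cells moved with genotype beside these genes. The summed level of 13 stromal markers was 29.4 to 38.5 CPM in CD41pos KO, against 215 to 398 CPM in CD41pos WT libraries, and 28.9 to 43.2 CPM in CD41neg KO against 195 to 887 CPM in CD41neg WT libraries. Of the 13, 7 were called lower in CD41pos and 8 in CD41neg HSCs, where 7.27% and 3.97% of all genes were, the same direction as Ccnd1, Ccnd2, Cdkn2c and Cdkn1c. These counts were 4 and 5 with the term for library number, where 2076 and 728 of all 19395 genes were called lower. Without the 4 libraries the median log2 fold change of the 13 was -2.32 in CD41pos and -3.29 in CD41neg HSCs. The 14 granulocyte and monocyte markers summed to 2073 to 4510 CPM in CD41pos KO and 5647 to 7032 CPM in CD41pos WT libraries, and to 579 to 1460 CPM in CD41neg KO and 2048 to 3137 CPM in CD41neg WT libraries, with 7 of 14 lower in each gate. Of these 14, 5 were lower in CD41pos and 3 in CD41neg HSCs with the term. Without the 4 libraries their median log2 fold change was -1.35 in CD41pos and -1.13 in CD41neg HSCs. The 10 mast cell, basophil and eosinophil markers, of which Mcpt1 was at 0 throughout, summed to 199 to 334 CPM in CD41pos KO and 466 to 919 CPM in CD41pos WT libraries, and to 83.3 to 186 CPM and 567 to 940 CPM in the CD41neg KO and WT libraries. Of the 9 tested, 4 were lower and 0 higher in each gate. With the term 4 were lower and 3 higher in CD41pos, and 4 lower and 1 higher in CD41neg HSCs. Cpa3 and Ms4a2 went against the sum in CD41pos HSCs. They had 79.4 to 87.6 and 24.5 to 37.9 CPM in KO, and 22.0 to 53.5 and 7.51 to 17.7 CPM in WT libraries. The 11 B and plasma cell markers summed to 271 to 332 CPM in CD41pos KO and 385 to 898 CPM in CD41pos WT libraries, and to 246 to 420 CPM and 584 to 3575 CPM in the CD41neg KO and WT libraries. Of the 11, 1 was called lower in CD41pos and 2 in CD41neg HSCs, and 0 higher. With the term 2 of the 11 were lower in CD41pos and 1 in CD41neg HSCs. Without the 4 libraries their median log2 fold change was -0.54 in CD41pos and 0.09 in CD41neg HSCs. Jchain had 48.4 to 95.1 CPM in CD41neg KO libraries. It had 2822 and 2346 CPM in CD41neg WT 2 and 4, which stood apart, and 276 CPM in CD41neg WT 3. Igll1 and Vpreb1 overlapped there, at 5.04 to 17.1 and 5.06 to 12.8 CPM in KO, and 0 to 9.83 and 0.476 to 7.22 CPM in WT libraries. The 10 endothelial markers were lower in CD41neg KO (194 to 297 CPM) than in CD41neg WT libraries (334 to 426 CPM), with 5 of 10 called. In CD41pos HSCs the endothelial sums overlapped (526 to 619 CPM in KO, 286 to 570 CPM in WT libraries), with 1 called higher and 1 lower. With the term 3 of the 10 were higher and 1 lower in CD41pos, and 1 higher and 4 lower in CD41neg HSCs. The 15 megakaryocyte and platelet markers summed to 2612 to 3123 CPM in CD41pos KO and 1848 to 2222 CPM in CD41pos WT libraries without overlap. Of these 3 were called higher and 1 lower. In CD41neg HSCs they summed to 768 to 935 CPM in KO and 588 to 787 CPM in WT libraries, with 2 higher. With the term 5 of the 15 were higher and 2 lower in CD41pos, and 2 higher in CD41neg HSCs. In those fits 2496 and 955 of all 19395 genes were called higher. T and NK cell markers (11) summed to 80.8 to 141 CPM in CD41pos KO and 231 to 303 CPM in CD41pos WT libraries, and to 50.4 to 95.2 CPM and 85.8 to 147 CPM in the CD41neg KO and WT libraries. The 11 erythroid markers summed to 1522 to 2254 CPM in CD41pos KO and 2046 to 2786 CPM in CD41pos WT libraries. In the CD41neg KO and WT libraries they summed to 3812 to 4471 CPM and 4706 to 5993 CPM. With the term 2 T and NK cell and 1 erythroid marker were lower in CD41pos, and 1 of each list in CD41neg HSCs. The 14 genes on the HSC list, Cd48 among them, summed to 3025 to 3225 CPM in CD41pos KO and 1926 to 2895 CPM in CD41pos WT libraries. In the CD41neg KO and WT libraries they summed to 2534 to 3517 CPM and 1840 to 2735 CPM. The part of these cells in the results was not tested. Between the gates in WT, where Ccnd1 differed by 2.59-fold, the stromal sums overlapped (215 to 398 CPM in CD41pos, 195 to 887 CPM in CD41neg libraries), and the granulocyte and monocyte sums were higher in CD41pos WT. There 11 of 15 megakaryocyte and platelet markers were higher and 8 of 11 erythroid markers lower in CD41pos libraries. Of all 19395 genes 528 were called higher and 556 lower in that comparison. With the replicate block 4 of the 15 were higher and 0 of the 11 erythroid markers lower, in a fit that called 42 of 19395 genes.

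For each of the 10 genes the 2 genes with the most similar pattern over the 12 libraries were found among 9030 genes, as the smallest root mean square difference of mean-centred log2 CPM. Cdk4 had the closest match, Otub1 at 0.05, followed by Myl12a at 0.06, and Ccnd2 was matched by Jmjd8 at 0.07 and Cnpy3 at 0.09. Cdk6 was matched by Setd5 at 0.08 and Ep400 at 0.09, and Ccnd3 by Bod1 and Hmgn2 at 0.13 each. Cdkn1a was nearest to Nr4a2, at 0.31, and to Id1, at 0.43, against its own root mean square deviation of 1.02. Cdkn1c was nearest to Ldhb at 0.31 and Slc22a17 at 0.36, against its own deviation of 1.05. The nearest to Cdkn2c were H2-DMb1 and Tagln2, at 0.15 each, and to Cdkn2d Tgfb1 and Twf2, at 0.16 each. Ccnd1 was nearest to Flywch2 at 0.28 and Sh2b2 at 0.36, and Cdkn1b to Wbp1 at 0.21 and Tnfsf13 at 0.22. These are descriptions over 12 libraries that share groups and sequencing.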

How the data were processed

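The authors deposited 1 table of whole-read counts per gene, with no normalization, and 1 table of TPM of the same genes and libraries, made with SMART-Seq v4 libraries of RNA extracted from sorted cells, per the labels' protocols. The submitters' processing notes name the mm10 build, the aligner STAR 2.6.1e, the counter featureCounts 1.6.2, the trimmer cutadapt 1.9.1 and FastQC 0.11.7. The sources used here do not give their settings, the annotation or the lengths behind the deposited TPM. The kit does not mark strand.

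The 4 groups were taken from the labels. Counts were scaled by TMM, and 19395 of 35869 genes passed filterByExpr and were tested with edgeR 4.0.16 in R 4.3.3, in 1 quasi-likelihood fit with a mean per group, two-sided, with Benjamini-Hochberg adjustment over all of them. The SE was derived from the F statistic. Before use, the fit was tested on simulated data. Alternatives were DESeq2 1.42.0, its size factors, other filters, smaller fits, replicate blocks, quality weights, limma-trend (limma 3.58.1) on log2(TPM + 1) and log2(TPM + 0.1), a Y-linked covariate, the treatment of the 4 WT libraries, and leaving out each library. The shares and the order from annotated exonic length, and the other lists with the 4 WT libraries adjusted for or left out, were added after seeing the data. The deposited TPM served for shares and for the order of levels, with exact permutation tests. Same-numbered KO libraries deviated together across gates (correlations 0.478, 0.657 and 0.544 over 10206 genes), as did WT 3 (0.145) but not WT 4 (-0.519), and the number pairs the KO libraries. No pair of replicate libraries agreed within sampling noise (12 pairs).

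The 10 genes, the lists of other genes and the tests were chosen with earlier results of these data known. Named genes are the 10, the up to 4 genes of smallest adjusted p in each list of cell cycle genes and gate, and the 2 most similar genes to each of the 10 (mean of at least 10 CPM, no predicted, mitochondrial or sex-linked genes). Other genes named, such as Nr4a1, Atf3, Procr, Mecom and Kit, were chosen after their values were seen. Positions are 1-based on GRCm38, and gene overlaps are from GENCODE.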

Additional observations from a re-analysis of the deposited data

How the results depend on the processing

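In CD41pos HSCs the KO against WT calls of Cdkn2c, Ccnd1 and Ccnd2 were kept in 25 of 25 alternatives, that of Cdkn1c in 15 and that of Cdkn1b in 5. In CD41neg HSCs Cdkn2c kept its call in 20 of 25 and Ccnd2 in 19 of 25; Cdkn2c lost it without CD41neg KO 1 or 3 or CD41neg WT 2 or 4, and Ccnd2 without any CD41neg KO library or CD41neg WT 3 or 4. The number of the 10 genes called in CD41pos HSCs was 3, against 5, with the number as a replicate block and on both log2(TPM) scales, 7 with quality weights, and 3 to 4 with 1 library left out. In CD41neg HSCs it was 0, against 2, with the replicate block, 4 with quality weights, and 0 to 4 with 1 library left out. The fits with quality weights called 6456 of all 19395 genes in CD41pos and 3395 in CD41neg HSCs. Numbers shared by KO and WT libraries do not pair them, with correlations of -0.301 to 0.153. Between the gates in KO it was 0, against 1, with the replicate block and with the Y-linked covariate, 2 with the term for the 4 WT libraries, 3 with DESeq2, quality weights, the KO groups alone or without the 4 WT libraries, and 0 to 3 with 1 library left out. Between the gates in WT the number of the 10 called was 0, against 3, with the replicate block or the WT groups alone. It was 4 with DESeq2 or the term, and 1 to 3 with 1 library left out. The block called 42, DESeq2 2428 and the term 1604 of all 19395 genes, against 1084 in the main fit, and the WT groups alone 201 of 17567.

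Directions that turned were those of genes not called. For KO against WT in CD41pos HSCs, Cdkn2d was at 0.13 on both TPM scales and 0.0800 with quality weights, and Ccnd3 at 0.0066 and 0.0067 on log2(TPM + 1) and log2(TPM + 0.1) and 0.0537 with quality weights. Cdkn1a was at -0.48 with the term and -0.35 without the 4 WT libraries, and Cdk6 at -0.16 without them. In CD41neg HSCs Cdkn1b was at 0.0869 on log2(TPM + 1) and 0.0905 on log2(TPM + 0.1), Cdkn1a at -0.0924 with the term and -0.13 without the 4 libraries, and Cdkn2d at -0.0579 with the term. Between the gates in WT, Cdkn1c was at 0.0335 with the block and 0.30 without the 4 libraries, and Cdkn1a at -0.11 with quality weights. The Cdkn1b share in CD41neg HSCs, KO minus WT, was 2.97 percentage points on CPM and 5.51 on annotated length, against -9.18 on TPM. Leaving out 1 library gave ranges across 0 for Cdkn2d (-0.21 to 0.11) and Ccnd3 (-0.40 to 0.0858) in CD41pos KO against WT, and Cdkn1b (-0.28 to 0.0670) in CD41neg KO against WT. Between the gates in KO the ranges were -0.34 to 0.0462 for Cdkn1b, -0.83 to 0.0146 for Cdkn1c and -0.0315 to 0.28 for Cdk6. Between the gates in WT they were -0.46 to 1.81 for Cdkn1a, -0.0663 to 0.31 for Cdk4 and -0.0057 to 0.38 for Cdk6. The cause was not tested.

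Over all genes, the count called in KO against WT ran from 957 with the block to 7639 without the 4 WT libraries in CD41pos HSCs (main 3309), and from 341 without CD41neg KO 3 to 3856 without CD41pos WT 3 in CD41neg HSCs (main 1517). Between the gates it ran from 156 with the block to 3858 with quality weights in KO (main 541), and from 42 with the block to 4811 without the 4 libraries in WT (main 1084). On log2(TPM + 1) the median of all genes lay 0.21 higher in CD41pos and 0.16 higher in CD41neg HSCs than in counts, and the CD41pos calls split into 1674 higher and 763 lower, against 1899 higher and 1410 lower. With 3 libraries per group, the SE of these genes was 0.13 to 0.66 on the log2 scale within a gate or genotype. It reached 0.92 for the interaction. Changes well above 1 SE could also fail to pass in the main edgeR fit. Examples are Cdkn2c between the gates in KO (0.50 ± 0.15, adjusted p = 0.0983) and Cdk4 in CD41pos HSCs, KO against WT (-0.45 ± 0.17, adjusted p = 0.0867).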
